A study of Mus musculus with 48 samples.

Results

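The thoracic aortas of control mice were compared here at different states of the circadian clock. The libraries were chosen by 2 measured values, the levels of Arntl and Dbp. For each library a phase index was computed as log2(CPM + 1) of Arntl minus log2(CPM + 1) of Dbp, where CPM is the count of a gene divided by the total of its library and multiplied by 1000000. Within each control group the 4 libraries with the highest index (high phase) and the 4 with the lowest (low phase) were taken, which gave 8 high-phase and 8 low-phase libraries, 16 of the 20 control libraries and of the 48 libraries in all. The series measured RNA in the thoracic aorta of male and female C57BL/6J wild-type mice, with 1 library per mouse. The control groups, MaCon (males, n = 10) and FeCon (females, n = 10), drank normal water from the age of 3 weeks for 28 days. The other groups drank 0.4% β-aminopropionitrile (BAPN), which blocks the cross-linking of collagen and elastin by lysyl oxidase, over the same 28 days and were divided by the absence (MaNonAD, n = 4, and FeNonAD, n = 8) or presence (MaAAD, n = 7, and FeAAD, n = 9) of an aortic lesion. All mice were kept under a 12-h light/dark cycle, and the study's methods place the end of the experiment in the morning of 1 day. Each control group was kept in 2 cages, but the hour at which each aorta was taken and the cage of each mouse are not given. Phase, hour and cage therefore cannot be told apart.

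The circadian clock is a loop of transcription and translation that runs in nearly every cell of the vessel wall. Arntl (BMAL1) pairs with Clock or its relative Npas2 and switches on genes whose promoters hold an E-box, among them the Period and Cryptochrome genes, the REV-ERB receptors Nr1d1 and Nr1d2, and the D-box activators Dbp, Tef and Hlf. The Period and Cryptochrome proteins then silence Arntl and Clock, while the REV-ERB receptors repress Arntl, Npas2 and Nfil3 through the element that ROR receptors use for activation. Arntl and Dbp therefore peak at nearly opposite times, and in arteries the clock is known for its part in daily rhythms of tone and blood pressure.

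The phase index ranged from -7.43 to 3.63 in MaCon and from -7.49 to 0.32 in FeCon. In MaCon the high-phase libraries were MaCon4 at 3.63, MaCon8 at 3.12, MaCon7 at 2.90 and MaCon6 at 2.64, and the low-phase libraries were MaCon10 at -1.04, MaCon1 at -1.19, MaCon9 at -2.25 and MaCon5 at -7.43. In FeCon the high-phase libraries were FeCon2 at 0.32, FeCon7 at -0.47, FeCon9 at -0.79 and FeCon5 at -2.37, and the low-phase libraries were FeCon8 at -4.75, FeCon6 at -5.66, FeCon4 at -6.44 and FeCon3 at -7.49. Values below are listed in this order of libraries. The split thus did not cut both groups at the same place: 3 of the 4 low-phase MaCon libraries lay within the range of the high-phase FeCon libraries, and MaCon5 stood far below the rest of its group. The classes therefore differ in phase within a group by construction, but the same class covered different stretches of the index in the 2 groups, and the name of opposite phases does not hold across them. The libraries just outside the selection were MaCon2 at -0.92 and MaCon3 at -0.99, beside MaCon6 and MaCon10 just inside, and FeCon10 at -3.32 and FeCon1 at -4.24, beside FeCon5 and FeCon8. Over the 16 libraries Arntl ranged from 1.43 to 64.2 CPM and Dbp from 4.28 to 535 CPM, which is a description of how the libraries were chosen and not a result.

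**Figure D1:**
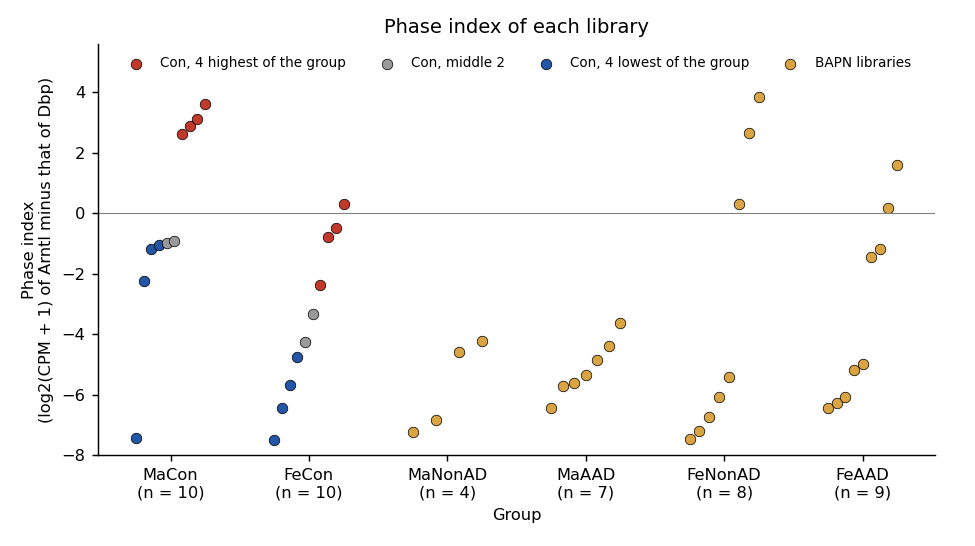
Phase index (vertical axis, log2 units) of each library by group, 1 point per mouse, with red for the 4 highest and blue for the 4 lowest control libraries of a group, grey for the middle 2 and ochre for BAPN libraries. The high-phase FeCon libraries, from -2.37 to 0.32, cover the same range as 3 of the 4 low-phase MaCon libraries.

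The promoters of the genes described below were read from RefSeq windows of GRCm38.p6, each from 250 bases before a gene's start to 50 after it. Windows were found for 47 of the 59 genes whose values were tabulated, and 3 motifs were searched on both strands: the E-box CACGTG, held by 7.15% of 32851 windows, the D-box TTATGTAA, held by 0.938%, and the core of the ROR and REV-ERB element TAGGTCA, held by 2.61%. The stretches below lie upstream of the start and are written 5′ to 3′ on the gene's own strand, with each match in capitals. They were picked with the values known, to set E-box genes beside genes of the other 2 elements, and include 2 genes outside the core clock, Rcor2 and Leo1. E-boxes were also found, and are not printed, in the windows of Tspan4 and Adra2a, which fell, of Insig1, which rose, and of Per1, Sgk1 and Fkbp5, which were not called, as well as in a further window of Tef. The E-box copies shown are those of Ciart (a repressor of the Clock and Arntl pair; chr3:95882259-95882358, minus strand), Bhlhe41 (chr6:145865546-145865595, minus strand), Tef (chr15:81802523-81802572, plus strand), Rcor2 (chr19:7267334-7267383, plus strand) and Cry1 (chr10:85185090-85185139, minus strand). The D-box copies are those of Per3 (chr4:151044801-151044890, minus strand). The ROR and REV-ERB element is that of Nfil3 (chr13:52981040-52981089, minus strand), where the match is on the opposite strand and reads TGACCTA, and of Leo1 (chr9:75441434-75441483, plus strand).
Ciart: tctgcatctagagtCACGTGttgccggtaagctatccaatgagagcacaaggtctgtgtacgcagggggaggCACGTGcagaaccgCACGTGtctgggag
Bhlhe41: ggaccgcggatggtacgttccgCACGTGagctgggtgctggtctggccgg
Tef: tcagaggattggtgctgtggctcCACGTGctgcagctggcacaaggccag
Rcor2: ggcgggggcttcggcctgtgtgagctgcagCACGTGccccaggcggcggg
Cry1: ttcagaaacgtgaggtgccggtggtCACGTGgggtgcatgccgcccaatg
Per3: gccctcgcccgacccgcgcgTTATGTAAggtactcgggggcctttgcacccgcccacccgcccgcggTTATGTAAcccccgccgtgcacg
Nfil3: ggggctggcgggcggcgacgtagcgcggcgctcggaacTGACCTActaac
Leo1: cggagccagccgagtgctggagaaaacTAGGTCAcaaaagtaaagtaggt
The first bases of the Ciart E-boxes lay 116, 58 and 44 bases upstream of the start, and those of the Per3 D-boxes 205 and 158 bases upstream. Such matches describe letters in these windows and not sites of binding.

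Depth overlapped between the classes. Library totals ranged from 14613498 to 15434382 counts in the high-phase and from 13548003 to 16314525 in the low-phase libraries (two-sided exact permutation test within groups, p = 0.535, with 0.000408 the smallest p that 4900 arrangements allow). Smooth muscle markers were abundant in every library, with a sum over 26 contractile genes of 53925 to 68942 CPM in high-phase and 52093 to 78978 CPM in low-phase libraries. No gene was called over both groups in the 13 lists of markers of other cells, of which the neutrophil and B cell lists had too few counts for any gene to be tested. The sum of 8 brown fat markers ranged from 443 to 1441 CPM in high-phase and from 307 to 1911 CPM in low-phase libraries, and that of 10 heart muscle markers from 83.9 to 334 CPM and from 65.2 to 171 CPM. All of these ranges overlapped. Within the groups the medians of fat markers had opposite signs, with median log2 fold changes of 0.78 in MaCon and -0.30 in FeCon for white fat and of 0.58 and -0.61 for brown fat, and those of heart muscle were 1.04 and -0.46. The tissue is bulk RNA, in which fewer cells of a type and less RNA per cell cannot be told apart. Each p-value measures the spread between these mice, with mice of the same cage treated as independent.

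High-phase control aortas had more RNA of Nfil3 and less of Per3, Tcap and the D-box activator Tef. Of 13463 genes tested with edgeR's quasi-likelihood test with group as a covariate, 84 (0.624%) rose and 86 (0.639%) fell in high-phase libraries at a Benjamini-Hochberg adjusted p under 0.05, the threshold for every call below. Of these, 19 rose and 20 fell by a log2 fold change of at least 1. The median log2 fold change over all genes tested was 0.00. The high and low libraries did not overlap within MaCon and within FeCon, in the same direction, for 85 genes (0.631% of those tested), of which 61 were among the 170 called. Within MaCon alone the classes were apart for 3.08% of genes in the higher and 1.58% in the lower direction, and within FeCon for 2.99% and 4.34%. Without FeCon7 and FeCon9, a choice made after seeing the data and explained further on, 40 genes were called, and leaving out single libraries gave 44 (without FeCon6) to 328 (without MaCon1).

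Among the genes that peak near Arntl, Nfil3 changed most. Nfil3, a repressor that competes with Dbp, Tef and Hlf for D-boxes, stood at 113, 81.3, 98 and 157 CPM in the high-phase and 37.1, 19.7, 25.2 and 15.6 CPM in the low-phase MaCon libraries. In FeCon it stood at 35, 58.5, 88.3 and 27.1 CPM in the high-phase and 5.76, 3.5, 4.96 and 8.33 CPM in the low-phase libraries. The classes did not overlap in either group, and Nfil3 rose by a log2 fold change of 2.70 (adjusted p = 0.000741, SE 0.31). Rora, a receptor that activates Arntl, rose by 0.71 on the log2 scale (adjusted p = 0.0249, SE 0.15), with 51.6 to 82.9 CPM in high-phase and 31.5 to 66.6 CPM in low-phase libraries, so its ranges overlapped.

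The partners of Arntl were not called between the classes over both groups, but both were with the index as a continuous value over the 20 control libraries (adjusted p of 0.00013 for Npas2 and 0.00295 for Clock), and DESeq2 called Npas2 (adjusted p = 0.00908). Npas2 stood at 96.5, 57.6, 80.5 and 96 CPM against 52.5, 34.7, 60.9 and 3.42 CPM in MaCon, where the classes overlapped. In FeCon it stood at 52.1, 38, 38.9 and 17.3 CPM against 13, 9.48, 7.28 and 4.6 CPM, without overlap. Its log2 fold change over both groups was 1.61 (SE 0.39) at an adjusted p of 0.0524, and within FeCon it was called (log2 fold change 2.20, adjusted p = 0.0428). For Clock the log2 fold change was 0.57 (adjusted p = 0.195, SE 0.21). Of the 6 genes listed as peaking near Arntl, 5 could be tested, with a median log2 fold change of 0.71, and 2 were called. Rorb, a ROR receptor of neural tissue, was at 0 to 0.564 CPM in the control libraries and was not tested.

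Cry1, a repressor of the Clock and Arntl pair that peaks later than the other E-box genes, had its lowest values in the middle of the index. It stood at 20.2, 23.4, 18.6 and 19.2 CPM in the high-phase MaCon libraries and at 7.72, 8.43, 6.38 and 20.3 CPM in the low-phase ones, the last value being that of MaCon5. In FeCon it stood at 9.31, 7.09, 6.57 and 13.3 CPM in high-phase and 20.7, 16.3, 13.5 and 20 CPM in low-phase libraries. The direction thus differed between the groups, with a log2 fold change of 0.85 in MaCon and -0.86 in FeCon, neither called (adjusted p of 0.455 and 0.145), and 0.00 over both (adjusted p = 0.999).

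The genes driven through E-boxes and peaking near Dbp were lower in high-phase libraries where they were called. Of these 11 genes, all tested, 5 fell and none rose, and the median log2 fold change was -1.21. Per3, a Period gene, stood at 21.1, 16.3, 13.7 and 13.6 CPM against 24.9, 42.3, 43.8 and 153 CPM in MaCon and at 29.7, 19.1, 22.1 and 34.4 CPM against 82.9, 141, 133 and 154 CPM in FeCon. It did not overlap in either group and fell by 2.15 on the log2 scale (adjusted p = 0.00227, SE 0.29). Tef fell by 1.56 (adjusted p = 0.00227, SE 0.21), from 142 to 477 CPM in low-phase MaCon to 68.9 to 102 CPM in high-phase MaCon, and from 519 to 685 CPM to 168 to 335 CPM in FeCon.

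Hlf, the third D-box activator, and the repressor Bhlhe41 (DEC2) fell as well. Hlf had values of 15.7 to 31.7 CPM in the 8 high-phase and 15.7 to 79.9 CPM in the 8 low-phase libraries and fell by 1.36 on the log2 scale (adjusted p = 0.0109, SE 0.24). Within MaCon its classes overlapped, whereas in FeCon they did not. Bhlhe41 stood at 9.93 to 11.9 CPM against 19.2 to 47.2 CPM in MaCon and at 19.9 to 45.9 CPM against 64.7 to 86.7 CPM in FeCon, and fell by 1.38 (adjusted p = 0.00269, SE 0.20).

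The REV-ERB receptors had their highest values between the ends of the index. Nr1d2 stood at 23.7, 37.6, 33.7 and 20.5 CPM against 60.2, 111, 91.5 and 110 CPM in MaCon and at 100, 73, 95.2 and 139 CPM against 205, 197, 178 and 126 CPM in FeCon. It fell by 1.21 on the log2 scale (adjusted p = 0.0109, SE 0.21), although 1 high-phase FeCon library, FeCon5, exceeded a low-phase one. Nr1d1 stood at 49.8, 145, 110 and 60.1 CPM in high-phase MaCon and 496, 574, 421 and 271 CPM in low-phase MaCon, and in this group fell by 2.32 (adjusted p = 0.00484). In FeCon it stood at 443, 588, 684 and 1052 CPM against 652, 659, 663 and 411 CPM, with a log2 fold change of 0.33 (adjusted p = 0.627), and the highest of its 20 control values, 1075 CPM, was that of FeCon1 in the middle of that group. The log2 fold change of Nr1d1 over both groups was -0.99 (adjusted p = 0.284).

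The remaining members of this arm were not called between the classes over both groups, whereas the continuous index over the 20 control libraries called Per2 (adjusted p = 0.0158) and Ciart (adjusted p = 0.00108). For Per2 the log2 fold change was -0.77 (adjusted p = 0.220, SE 0.29), for Cry2 -0.28 (adjusted p = 0.616, SE 0.21) and for Bhlhe40 (DEC1) -0.42 (adjusted p = 0.297, SE 0.18). Ciart was at 0.908 to 1.96 CPM in high-phase MaCon and 2.88 to 43.3 CPM in low-phase MaCon, without overlap, but at 1.57, 24.8, 23 and 17.5 CPM against 22.5, 25.2, 27.5 and 36.2 CPM in FeCon. Its log2 fold change was -1.76 (adjusted p = 0.218, SE 0.67), and -0.94 without MaCon5 alone. Per1, a Period gene that also responds quickly to glucocorticoids and cyclic AMP, had a log2 fold change of 0.56 (adjusted p = 0.549, SE 0.37), which turned to -0.09 without FeCon7 and FeCon9.

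**Figure D2:**
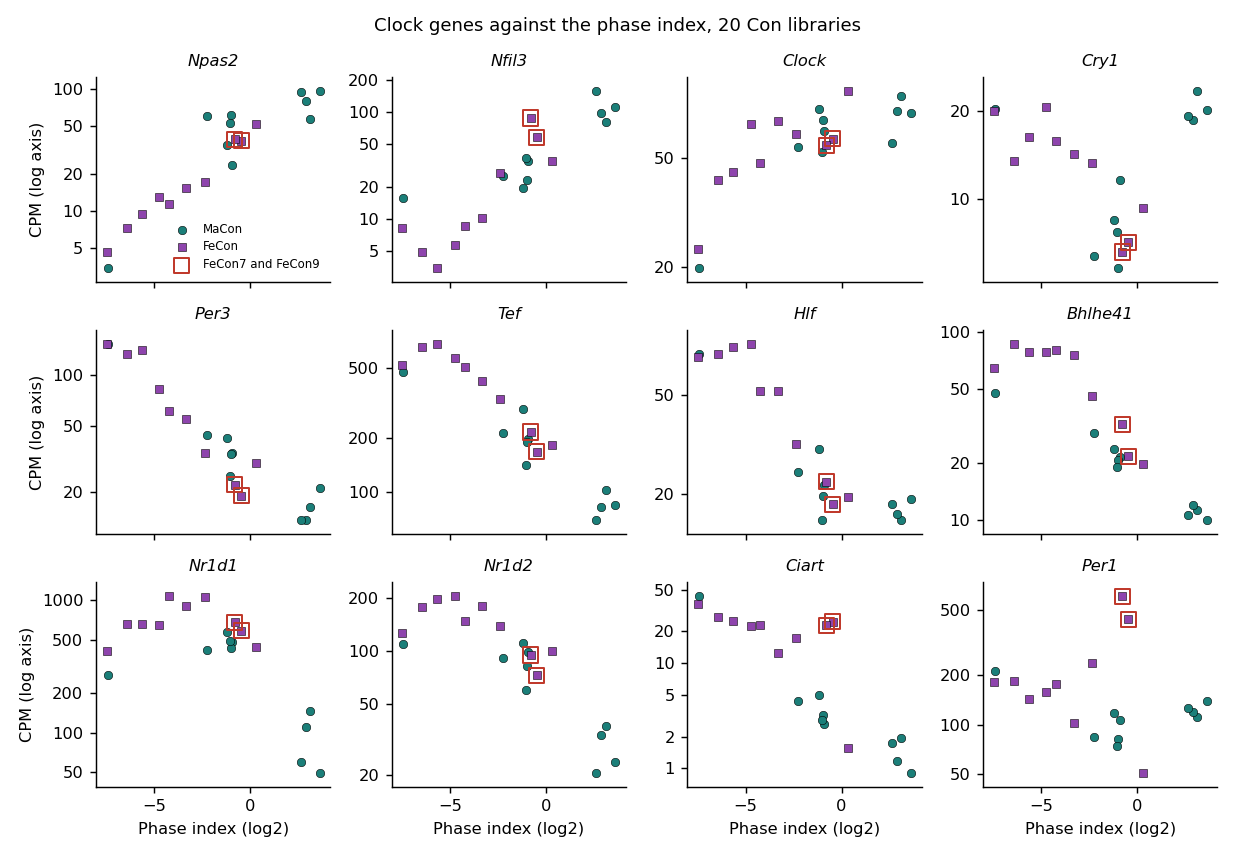
Level of 12 clock genes (vertical axes, CPM on a log scale) against the phase index (horizontal axes, log2 units) in the 20 control libraries, circles for MaCon and squares for FeCon, with FeCon7 and FeCon9 boxed. Per3, Tef, Hlf and Bhlhe41 declined along the index, Cry1 and Nr1d1 turned between the ends, and Per1 and Ciart of the boxed libraries lay above those of libraries with a like index.

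Libraries with nearly the same index differed in the levels of other clock genes. The 7 control libraries between -1.19 and 0.32 were MaCon1, MaCon10, MaCon3, MaCon2, FeCon9, FeCon7 and FeCon2. Ciart was at 23 CPM in FeCon9 and 24.8 CPM in FeCon7, and at 1.57 to 4.97 CPM in the other 5. Per1 was at 606 and 438 CPM in FeCon9 and FeCon7 and at 51 to 118 CPM in the other 5, and Errfi1 at 1355 and 1695 CPM against 107 to 152 CPM. These 2 libraries were singled out after their values were seen, and both were in the high-phase class, so they enter every comparison of control libraries that includes FeCon, above and below.

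Apart from the clock, the largest falls among called genes averaging at least 10 counts were in genes of several kinds. That limit left out Cxcl5, a chemokine gene, which averaged 8.62 counts and fell by 2.04 on the log2 scale (adjusted p = 0.0129). Tcap, the titin cap of the sarcomere, stood at 20.9, 35.6, 30.3 and 39.3 CPM against 165, 122, 177 and 470 CPM in MaCon and at 65.4, 142, 99.9 and 162 CPM against 277, 471, 374 and 417 CPM in FeCon. The classes overlapped in neither group, and Tcap fell by 2.27 on the log2 scale (adjusted p = 0.00278, SE 0.33). Of the heart and skeletal muscle markers, 6 and 4 could be tested over both groups, and none was called. Within FeCon a heart muscle marker was called, as given below. The sarcomere gene Actn2, which is in neither list, rose over both groups by 1.06. Rcor2, a co-repressor of the CoREST family, fell by 1.65 (adjusted p = 0.00443, SE 0.25), from 3.06 to 7.12 CPM to 1.7 to 2.85 CPM in MaCon and from 7.23 to 19.2 CPM to 2.02 to 4.24 CPM in FeCon. Lrtm2, a leucine-rich repeat membrane protein, was the only gene among the largest changes whose 8 high-phase values (3.07 to 7.72 CPM) all lay below its 8 low-phase values (8.23 to 21.7 CPM), and it fell by 1.35 (adjusted p = 0.00113, SE 0.17). The 8 and 8 libraries were apart, in either direction, for 26 of the 13463 genes tested and 18 of the 170 called.

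The other large falls were in genes of low counts. Pnmt, which makes adrenaline from noradrenaline, was at 0.13 to 1.5 CPM in high-phase and 0.719 to 3.09 CPM in low-phase libraries and fell by 1.67 (adjusted p = 0.0420, SE 0.38). The phosphatase gene Mtmr7 fell by 1.45 (adjusted p = 0.0109, SE 0.26), with 0.781 to 2.12 CPM in high-phase and 1.65 to 5.43 CPM in low-phase libraries. Adra2a, the alpha-2A adrenergic receptor, fell by 1.34 (adjusted p = 0.0249, SE 0.27), with 0.202 to 1.3 CPM against 0.995 to 2.49 CPM. For Pnmt and Adra2a the classes were apart in MaCon but overlapped in FeCon.

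The largest rises beside Nfil3 were also in genes of several kinds. Errfi1, an inhibitor of the EGF receptor, rose by 2.33 on the log2 scale (adjusted p = 0.0451, SE 0.55). It stood at 332, 213, 272 and 323 CPM against 115, 152, 101 and 156 CPM in MaCon and at 110, 1695, 1355 and 285 CPM against 88.6, 56.2, 74.9 and 96.5 CPM in FeCon, so the classes were apart in both groups while 2 FeCon libraries carried most of its height. Without both of those libraries its log2 fold change was 1.18 (adjusted p = 0.0209), but it was not called without FeCon7 alone (adjusted p = 0.0541), without FeCon9 alone (adjusted p = 0.0807) or with the continuous index (adjusted p = 0.129), and it stayed called in 10 of 27 alternatives. Of the 31 named genes that had been called, 14 were called without both libraries, which leaves 2 high-phase FeCon libraries. The log2 fold changes of 15 of the other 17 stayed within 1.5 times those over all 16 libraries, among them Hspa1a (1.90, adjusted p = 0.0526), Atf3 (1.65, adjusted p = 0.0587), Spon2 (1.39, adjusted p = 0.145), Cdkn1a (1.11, adjusted p = 0.0595), Dnajb1 (1.06, adjusted p = 0.0631) and Hlf (-1.28, adjusted p = 0.0569). Those of Rgs2 (0.81, adjusted p = 0.228) and Fosl2 (0.58, adjusted p = 0.0633) were smaller. Cdkn1a, which encodes the cell cycle inhibitor p21, rose by 1.58 (adjusted p = 0.0185, SE 0.31), with 114 to 513 CPM in high-phase and 60.6 to 151 CPM in low-phase libraries.

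Gem, a small GTPase that inhibits calcium channels, rose by 1.47 (adjusted p = 0.0139, SE 0.28), from 45.9 to 58.1 CPM to 72.4 to 112 CPM in MaCon and from 27.2 to 28.8 CPM to 52.4 to 172 CPM in FeCon. Its log2 fold change was 0.90 without FeCon7 and FeCon9, still called (adjusted p = 0.00199). Rgs2, which shortens signalling by G proteins that constrict arteries, rose by 1.48 (adjusted p = 0.0442, SE 0.35), with 19.6 to 164 CPM in high-phase and 14.3 to 48.2 CPM in low-phase libraries. The matrix protein gene Spon2 rose by 1.51 (adjusted p = 0.0432, SE 0.35) and Srcin1, an inhibitor of Src kinase, by 1.44 (adjusted p = 0.0497, SE 0.35), both at under 8 CPM in every library. For Rgs2, Spon2 and Srcin1 the classes were apart in MaCon and overlapped in FeCon.

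Immediate-early genes, switched on within minutes of a stimulus, had a median log2 fold change of 0.58 over 22 genes, and 3 of the 22 were called, all higher. The median was 0.21 in MaCon, with 15 of 22 above 0 and none called, and 0.92 in FeCon, with 22 of 22 above 0 and 6 called. Over all 13663 genes tested within the groups, 6683 were above 0 in MaCon and 7007 in FeCon. The shares called higher over all genes were 0.0366% in MaCon and 1.58% in FeCon. These shares belong beside the counts of the lists below as well. Atf3, a stress-induced repressor, rose by 2.11 (adjusted p = 0.0129, SE 0.39), with 19.9 to 173 CPM in high-phase and 13.2 to 34.7 CPM in low-phase libraries. Ier5 rose by 1.11 (adjusted p = 0.0129, SE 0.20) and Fosl2, an AP-1 subunit, by 0.88 (adjusted p = 0.0420, SE 0.20). Fosl2 was at 109 to 308 CPM in the 8 high-phase and 67.6 to 101 CPM in the 8 low-phase libraries, which did not overlap. It was 1 of the 26 tested genes for which this held.

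Of 17 genes that respond to glucocorticoids, 2 rose, Errfi1 and Cdkn1a, and the median log2 fold change was 0.60 over both groups, 0.13 in MaCon (10 of 17 above 0) and 0.55 in FeCon (15 of 17). The classical targets were not called: the log2 fold change was 0.70 for Fkbp5 (adjusted p = 0.642), 0.83 for Zbtb16 (adjusted p = 0.549), 0.62 for Sgk1 (adjusted p = 0.264) and 0.42 for Tsc22d3 (adjusted p = 0.493). Fkbp5, a co-chaperone of the glucocorticoid receptor, ranged widely among the control libraries, from 18.8 CPM in MaCon4 to 490 CPM in FeCon9. Its log2 fold change was -0.43 in MaCon (adjusted p = 0.869) and 1.81 in FeCon (adjusted p = 0.146), and that of Sgk1 was 0.09 and 1.15 (adjusted p of 0.951 and 0.0641), differences that were not called (adjusted p of 0.376 and 0.384 for the interaction).

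The other listed groups had few calls or none. Of 17 tested clock outputs, the elongation factor gene Leo1 (log2 fold change 0.95, adjusted p = 0.0331) and Cdkn1a rose, and Zfp36l2, which promotes decay of messenger RNA (-0.70, adjusted p = 0.00382), and the tetraspanin gene Tspan4 (-1.03) fell. Of 16 kinases and ligases of clock proteins, the ubiquitin ligase gene Siah2 rose (0.63, adjusted p = 0.0403). Single genes rose in matrix and secretion (Pde4d, a cyclic AMP phosphodiesterase, of 32), autophagy (Atg10, of 32) and lipid metabolism (Insig1, a brake on sterol synthesis, of 30). No gene was called among 26 contractile, 28 vascular tone, 11 haemostasis, 20 unfolded protein response, 36 splicing, 29 cell cycle, 30 oxidative phosphorylation and 2 cold-inducible genes, and the median log2 fold changes of these lists lay between -0.04 and 0.24. For Acta2 and Myh11, the main contractile genes of smooth muscle, the log2 fold changes were -0.01 (SE 0.16) and -0.00 (SE 0.12). Values near 0 over both groups could cover opposite signs within them. The median of the oxidative phosphorylation genes was 0.26 in MaCon, where 29 of 30 were above 0, and -0.23 in FeCon, where 1 of 30 was. That of the contractile genes was -0.18 in MaCon and 0.23 in FeCon, with Acta2 at -0.38 and 0.37. The median over all genes tested was -0.01 in MaCon and 0.01 in FeCon, no single gene of these 2 lists was called in either group, and the brown fat medians given above had the same signs as those of the oxidative phosphorylation genes. Their part in these values was not tested.

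The changes within MaCon and within FeCon were then estimated in a fit of the 4 cells of group and phase, over 13663 genes. In MaCon 5 genes (0.0366%) rose and 8 (0.0586%) fell. In FeCon 216 (1.58%) rose and 124 (0.908%) fell. Nfil3, Pik3ip1, Tcap and Tef were called in both groups. No gene differed between the groups in its change by edgeR's quasi-likelihood test of the interaction (lowest adjusted p = 0.103), with 1649 genes at an unadjusted p under 0.05, whereas DESeq2 called 75. Without FeCon2 alone the interaction called 243 genes and the comparison within FeCon 1387. Because the index differed between the groups as described, the interaction compared different stretches of it.

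**Figure D3:**
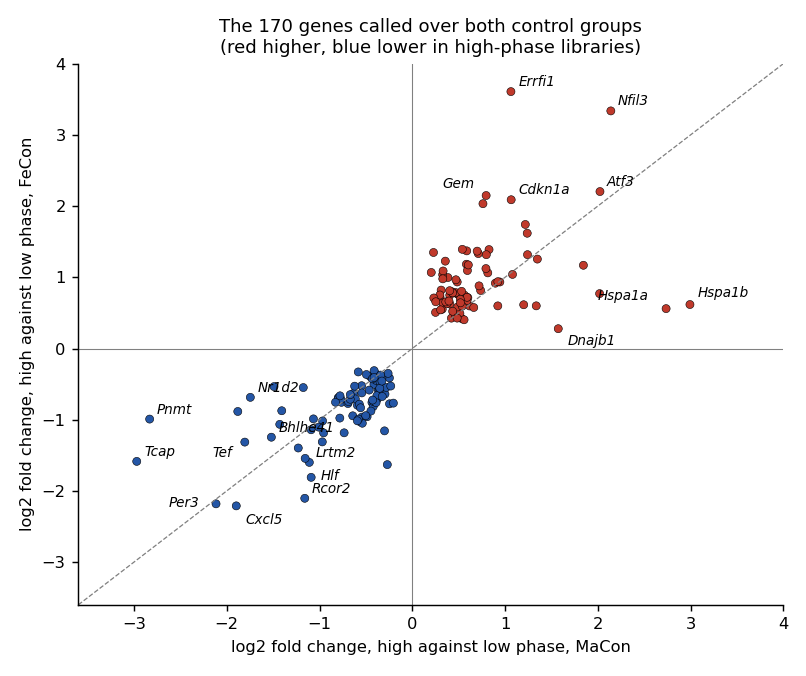
Log2 fold change of high against low phase in MaCon (horizontal axis) and FeCon (vertical axis) for the 170 genes called over both groups, red for rises and blue for falls, with the dashed line marking equal change. Hspa1a, Hspa1b and Dnajb1 lie to the right along the MaCon axis and Errfi1 high on the FeCon axis. The joint test chose these genes, so that both groups share a direction is not a result.

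Of the 5 genes that rose in MaCon, 4 encode chaperones (Hspa1a, Hspa1b, Dnajb1 and Dnajb4) and the other was Nfil3. Hspa1b, an inducible HSP70 gene, stood at 482, 1062, 1538 and 1146 CPM in high-phase and 150, 212, 65.4 and 89.9 CPM in low-phase MaCon libraries, a log2 fold change of 2.99 (adjusted p = 0.000551). In FeCon it stood at 169, 138, 110 and 126 CPM against 109, 102, 92.4 and 76.9 CPM (0.62, adjusted p = 0.305). The difference between the groups was -2.38 (SE 0.45) at an unadjusted p of 6.04e-05, which was 0.103 after adjustment.

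Hspa1a, its near-identical neighbour, between which reads can be shared out uncertainly, followed it, with log2 fold changes of 2.74 in MaCon (adjusted p = 0.000475) and 0.56 in FeCon (adjusted p = 0.285). Dnajb1, an HSP40 partner of HSP70, rose in MaCon from 40.9 to 53.8 CPM to 93.6 to 198 CPM (log2 fold change 1.57, adjusted p = 0.00235) and was at 44 to 51.3 CPM against 38.6 to 49.8 CPM in FeCon (0.28, adjusted p = 0.494). Over both groups 3 of 19 heat shock genes rose, these 3, and the median log2 fold change was 0.40. The list's median was 0.38 in MaCon, with 17 of 19 genes above 0, and 0.59 in FeCon, with 18 of 19 above 0 and none called. MaCon2, outside the selection, had 590 CPM of Hspa1b at an index of -0.92, while MaCon3 at -0.99 had 92.6 CPM.

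In FeCon the rises included 6 of the 22 immediate-early genes, and FeCon7 and FeCon9 stood apart in several. Nr4a1, an orphan nuclear receptor, stood at 49.3, 409, 744 and 164 CPM in high-phase and 40.1, 40.4, 56.7 and 74.1 CPM in low-phase FeCon libraries (log2 fold change 2.85, adjusted p = 0.0309), so the classes overlapped through FeCon2. Nr4a2 rose by 2.45 (adjusted p = 0.0153) and Btg2, an inhibitor of proliferation, by 1.91 (adjusted p = 0.0357). Btg2 was at 463 and 496 CPM in FeCon7 and FeCon9 and at 78.6 to 103 CPM in the other 8 FeCon libraries. Without these 2 libraries 1 gene, Nfil3, was called in FeCon (log2 fold change 2.47, adjusted p = 0.0425), and without FeCon6 alone 14 were called. Of the 27 genes described here that lost a FeCon call without FeCon7 and FeCon9, 18 kept a log2 fold change within 1.5 times the first, such as Per3 (-1.97), Tcap (-1.71) and Hlf (-1.52). It was smaller for the other 9, at 0.11 for Btg2, 1.07 for Nr4a1 and 1.62 for Nr4a2.

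**Figure D4:**
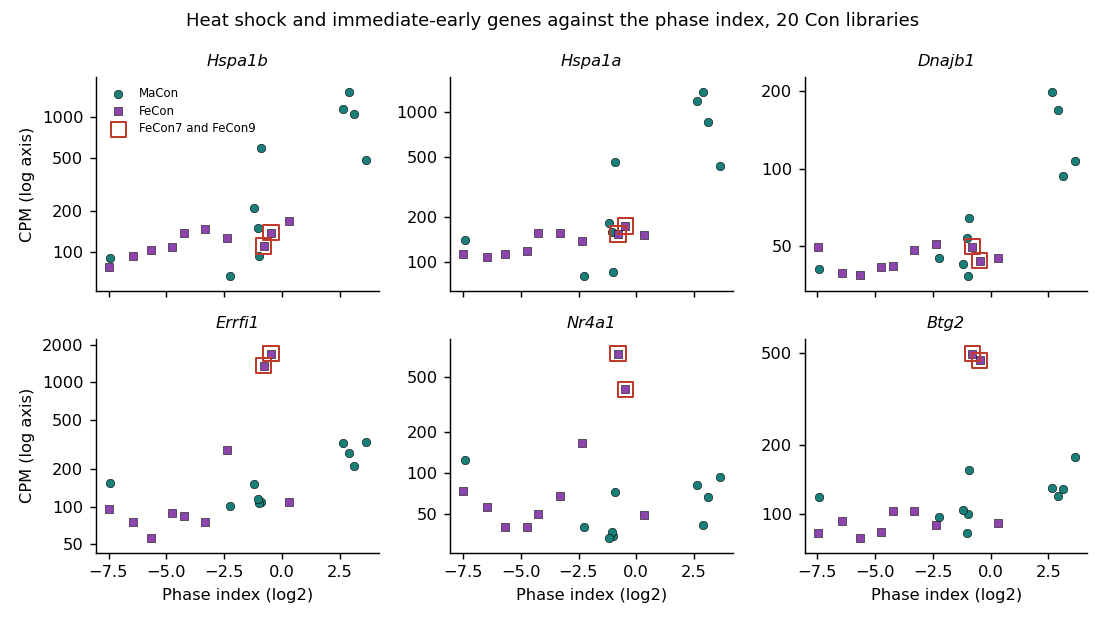
Level of 3 heat shock genes (upper row) and of Errfi1, Nr4a1 and Btg2 (lower row) in CPM on a log scale against the phase index in the 20 control libraries, with FeCon7 and FeCon9 boxed. Hspa1b reached 482 to 1538 CPM in the high-phase MaCon libraries, and Btg2 was at 463 and 496 CPM in the boxed libraries and at most 177 CPM in the others.

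Also in FeCon, 3 of 20 unfolded protein response genes rose, the disulfide isomerases Pdia4 (log2 fold change 0.72, adjusted p = 0.0309) and Pdia6 (0.63, adjusted p = 0.0394) and Creld2 (0.88, adjusted p = 0.0452), together with Serpinh1, the collagen chaperone HSP47 (0.57, adjusted p = 0.0484). None of these 4 was called without FeCon7 and FeCon9 (adjusted p of 0.451 to 0.63), where the log2 fold changes were 0.64 for Pdia4, 0.62 for Pdia6, 0.74 for Creld2 and 0.38 for Serpinh1. In MaCon the log2 fold changes of the 4 genes lay between -0.14 and -0.03. Among markers of other cells, Ryr2 of heart muscle rose and Dio2 of brown fat fell in FeCon. Of the 8 heart muscle markers tested there, 2 were above 0, with a median of -0.46. Of the 7 brown fat markers tested there, 0 were above 0. With the brown fat markers, Dio2 included, as a covariate, 79 genes were called in FeCon in place of 340. Over both groups that covariate gave 295 calls in place of 170, and in MaCon 13 as before.

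Whether the genes called in controls followed the same index elsewhere was examined in the 28 BAPN libraries, none of which had been used for the split. The index ranged from -7.47 to 3.85 there, but all 11 male libraries lay between -7.23 and -3.64, so the spread came mainly from the 17 female libraries. The slope of each gene on the index was tested with edgeR within the 4 BAPN groups, and of 14293 genes 378 (2.64%) rose and 227 (1.59%) fell with the index. Over all of these genes 51% of slopes were positive and 49% negative. Of the 84 genes higher in high-phase controls, 65 had a positive slope and 25 (29.8%) were called higher. Of the 86 lower in controls, 80 had a negative slope and 35 (40.7%) were called lower. None of these 170 genes was called in the opposite direction. Of the genes called within FeCon, 215 rises could be tested, of which 122 had a positive slope, 28 (13%) were called higher and 2 lower. Of its 124 falls 98 had a negative slope and 26 (21%) were called lower. Of the 5 rises and 8 falls of MaCon, 4 and 5 were called in the same direction.

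Several clock genes were among them, but Rora, higher in high-phase controls, had a slope of 0.01 (adjusted p = 0.835). Per unit of the index, the log2 slope in BAPN libraries was -0.36 for Per3 (adjusted p = 2.85e-08), -0.40 for Tcap (adjusted p = 9.77e-10), -0.28 for Tef (adjusted p = 9.77e-10), -0.26 for Bhlhe41 (adjusted p = 9.77e-10) and 0.32 for Nfil3 (adjusted p = 3.34e-08). Npas2 (0.39, adjusted p = 7.07e-09) and Ciart (-0.52, adjusted p = 9.29e-12), not called between the high- and low-phase controls of both groups together, were called there. Of the 11 E-box genes 10 fell with the index, all but Bhlhe40. Heat shock genes rose in 14 of 19 cases, with Hspa1b at 0.21 (adjusted p = 0.00216). Among immediate-early genes 2 of 22 rose, and the slope was 0.00 for Atf3 (adjusted p = 0.961) and -0.08 for Nr4a1 (adjusted p = 0.260).

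**Figure D5:**
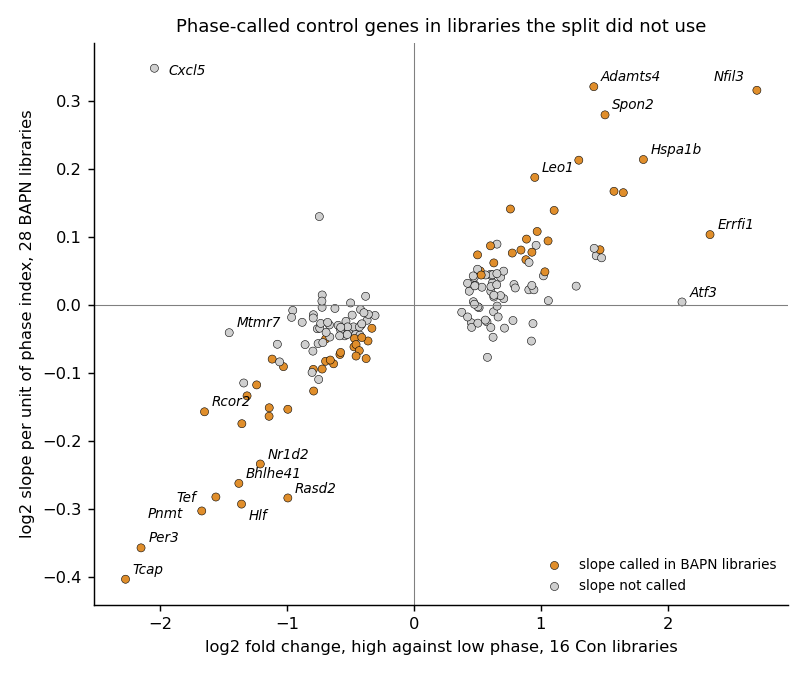
Log2 fold change of high against low phase in the 16 control libraries (horizontal axis) and log2 slope per unit of the phase index in the 28 BAPN libraries (vertical axis) for the 170 genes called in controls, ochre where the slope was called. The 25 rises and 35 falls called in both lie in the upper right and lower left, with Tcap at -0.40 and Nfil3 at 0.32 per unit.

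The 4 middle control libraries gave a second view. On the log2(CPM + 1) scale, the mean of MaCon2 and MaCon3 lay between the means of the high and low classes for 67 of the 84 genes called higher and 58 of the 86 called lower, and the mean of FeCon1 and FeCon10 for 70 and 70. Over all genes tested the shares were 26.6% in MaCon and 36.7% in FeCon. A gene chosen for a gap between its classes leaves more room between them, so these shares are a description. Tef shows the pattern, with 199 and 190 CPM in MaCon2 and MaCon3 and 424 and 505 CPM in FeCon10 and FeCon1.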

How the data were processed

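The authors deposited expected counts per gene from 48 strand-specific libraries of thoracic aorta, not scaled to library size. The submitters' processing notes name Bowtie2, RSEM 1.3.1 and GRCm39. Of the values, 4.99% were not whole, and all were rounded. RSEM shares reads between similar genes by estimation, so levels of near-identical genes are uncertain. Counts carry no molecular identifiers.

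High- and low-phase libraries were compared with edgeR 4.0.16 in R 4.3.3 (filterByExpr, TMM, quasi-likelihood fit with robust estimation, group as covariate). Arntl and Dbp entered the fit but were left out of tests and counts. Called genes had a Benjamini-Hochberg adjusted p under 0.05. SEs are approximate. Genes named were all members of the 2 core clock lists but 1, which is not reported here, the 10 largest rises and falls among called genes averaging at least 10 counts, and of other lists up to 3 called genes with the lowest adjusted p; others are list members given as values. The libraries and lists were chosen with earlier results of these data known. Replicate numbers were not taken to pair the samples. Of 10 same-numbered pairs 2 correlated above 0.1 (range -0.405 to 0.328). Differently numbered pairs were not compared, so these values cannot show whether a pairing exists. Alternatives included DESeq2 1.42.0, its size factors, no filter, added covariates, a continuous index, a replicate block and leaving out libraries. Scripts were tested on simulated data. Python 3.11.15 was used with pandas 2.3.3, scipy 1.17.1 and matplotlib 3.10.9.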

Additional observations from a re-analysis of the deposited data

Results flagged for a closer look

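Among the 80 sets of 8 libraries examined, for the named genes in the high-phase and in the low-phase class, 3 held 1 library far from the other 7, where chance gives about 1 in 20. Pnmt was at 3.09 CPM in FeCon6, the highest of the low-phase libraries. Pde4d was at 57.9 CPM in FeCon8, against at most 31.4 CPM in the other low-phase libraries. Insig1 was at 61 CPM in MaCon1, against at most 39.5 CPM in the other low-phase libraries.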

How the results depend on the processing

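Of the 31 named genes called over both groups, 8 (Bhlhe41, Ier5, Lrtm2, Nfil3, Per3, Rcor2, Tcap and Tef) stayed called under all 27 alternatives, and none of the 31 changed direction. The 170 calls became 500 with DESeq2 (which held all 170), 106 with no filter, 348 in a fit of all 48 libraries, 295 with brown fat markers as a covariate, 347 with the index as a continuous value, 39 with the study's limit on fold change and 40 without FeCon7 and FeCon9. A replicate block gave 46 calls (33 of the 170), or 28 with the continuous index. The labels do not say whether libraries of the same number share anything else. Leaving out single libraries gave 44 to 328 calls, and 12 of 16 such fits moved the count by over 1.5 times. The MaCon calls, 13, became 83 with DESeq2, 5 in the fit of all libraries and 28 with the continuous index, and ranged from 8 to 19 without single libraries. The FeCon calls, 340, became 808 with DESeq2, 575 in the fit of all libraries and 575 with the library total as a covariate, 79 with brown fat markers, 77 with the continuous index, 127 with the limit on fold change and 1 without FeCon7 and FeCon9, and ranged from 14 (without FeCon6) to 1387 (without FeCon2), with 21 without FeCon9, 33 without FeCon7, 95 without FeCon4, 99 without FeCon3, and 197, 223 and 226 without MaCon7, MaCon8 and MaCon9. The interaction calls, 0, became 75 with DESeq2 and 1 in the fit of all libraries, and 0 to 243 without single libraries, the highest without FeCon2. The BAPN slope calls, 605, became 1368 with DESeq2, 76 in NonAD and 70 in AAD libraries alone, which have fewer samples, and 505 to 701 without single MaNonAD libraries. The MaNonAD libraries lay between -7.23 and -4.22 on the index, and no female BAPN library was left out singly. The range of 505 to 701 therefore cannot show how far the slopes rest on single libraries. Depth counted as genes with at least 10 counts had p = 0.969. The uncalled change of Cry1 turned to -0.01 with DESeq2 or its size factors, -0.02 in the fit of all libraries and with the continuous index, also blocked, -0.06 with the library total, -0.0018 with the replicate block and -0.16 to 0.13 in fits without single libraries. That of Per1 turned to -0.09 without FeCon7 and FeCon9. The cause of these moves was not tested.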

Other observations

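The phase index lay lower in male BAPN libraries than in most male controls: it ranged from -7.23 to -4.22 in MaNonAD and from -6.45 to -3.64 in MaAAD, with medians of -5.71 and -5.34, against a median of -0.95 in MaCon, where MaCon5 was the only library below -2.25. In females the medians were -3.78 in FeCon, -5.74 in FeNonAD and -4.99 in FeAAD, and the ranges overlapped, reaching 3.85 in FeNonAD and 1.61 in FeAAD. The hour of harvest and the cage are not in the labels, so their part in these values was not tested.

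Over the tested genes with a promoter window, the E-box was held by 10 of 63 genes that fell with the index (15.9%), 8 of 64 that rose (12.5%) and 11.5% of all 10678. The ROR and REV-ERB core was held by 3 of the 64 that rose, 0 of the 63 that fell and 2.2% of all, and the D-box by 2 of the 63, 0 of the 64 and 0.674% of all. These counts are small and were not tested.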
